A study of Mus musculus with 8 samples.

Results

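The genes described here are those of the cytosolic ribosome in heart muscle cells of newborn mice. They are every entry of the deposited count table whose symbol is that of a large-subunit (Rpl) or small-subunit (Rps) protein, together with the stalk genes Rplp0, Rplp1 and Rplp2 and with Rpsa. The Rps6k kinases and entries marked -ps as pseudogenes were left out. This rule uses names and no measured value, and it took 92 of 48440 entries. Of these, 77 encode core ribosomal proteins: 43 of the large subunit, 31 of the small subunit and 3 of the stalk. A further 8 are paralogs, among them Rpl3l, a form of Rpl3 found in heart and skeletal muscle. There are 6 copies that GENCODE annotates as pseudogenes although their symbols lack -ps, namely Rpl37rt, Rps4l, Rps12l1, Rpl6l, Rps3a3 and Rps3a2. The last entry, Rps19bp1, encodes a nucleolar protein that binds Rps19 and is no ribosomal protein. The core proteins made from Fau and Rack1 fall outside the symbol rule and are given further on.

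RNA was measured in purified cardiomyocytes of C57BL6/J pups on postnatal day 2. The design took 1 male and 1 female heart from each of 4 litters, so that there are 8 libraries, 4 per sex and 2 per litter. No treatment or engineered allele is named, and all groups share strain and age. A litter's libraries come from sibling pups, and anything that was handled litter by litter cannot be told apart from the litter itself. The labels allow males to be compared with females and litters with each other.

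A ribosome is built from a large and a small subunit, each a core of ribosomal RNA clothed in proteins that are needed in nearly equal numbers. Most core proteins come from a single expressed gene, while the genome holds many processed pseudogenes of them. Their mRNAs begin with a run of pyrimidines, the terminal oligopyrimidine (TOP) tract, through which the mTOR kinase and the La-related protein Larp1 control their translation together. In striated muscle Rpl3l can take the place of Rpl3 near the peptidyl transferase centre, much as the elongation factor Eef1a2 can take the place of Eef1a1.

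Start sites of members are shown because this tract lies at the start, although most member starts did not meet the strict definition used below. RefSeq promoter windows on GRCm38.p6 were found for 67 of the 92 members, with 79 start sites. Each line gives 30 bases before the start and 20 from it onward, on the gene's strand, with capitals for a tract that opens with C at the start base and goes on with C or T for at least 5 bases in all.
Rps27: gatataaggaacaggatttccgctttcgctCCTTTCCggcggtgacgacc
Rps21: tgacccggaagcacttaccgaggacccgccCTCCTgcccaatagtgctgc
Rplp2: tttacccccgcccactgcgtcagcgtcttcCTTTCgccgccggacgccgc
Rpl28: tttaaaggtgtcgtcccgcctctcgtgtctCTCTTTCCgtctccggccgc
Rps10: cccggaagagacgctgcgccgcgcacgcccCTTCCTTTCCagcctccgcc
Rpl3l: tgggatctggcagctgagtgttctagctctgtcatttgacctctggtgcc
Their windows lie at chr3:90213629-90213678 (minus strand), chr2:180257349-180257398 (plus), chr7:141447621-141447670 (plus), chr7:4792935-4792984 (plus), chr17:27635225-27635274 (minus) and chr17:24727796-24727845 (plus), in the order of the lines. Rps27, Rps21, Rplp2, Rpl28 and Rps10 are members described below, each shown at a start with a tract. Rps21 has another start without one. Rpl3l is the muscle paralog, in which no such tract stands at this start or at its other RefSeq start. This does not set Rpl3l apart, as among core genes with a window 44 had no tract and 13 had one. No window was found for Rpl3.

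By this strict definition a tract stood at 14 of 79 member starts, or 17.7%, against 2.5% of all 32851 mouse starts in the table. A motif of ETS-family factors, CTTCCG on either strand within 250 bases before to 50 after the start, was found at 59.5% of member starts and 16.9% of all starts. The motif AAGATGGC, which fits the factor YY1, stood at 10.13% of member starts and 2.75% of all starts, counted separately, so that matches of different motifs may overlap. A match describes the letters only, and a window without one says nothing about the factor or the mRNA.

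Library totals ran from 14226342 to 24910243 counts, and the 92 members together took 1.526% to 2.009% of a library. Xist counts ran from 15865 to 31331 in the female libraries and from 15 to 124 in the males, so that the sex labels and this gene go together. Several libraries stood apart. Genes encoded in mitochondrial DNA took 18.46% of counts in the male of litter 4 and 13.43% to 15.2% in the other 7 libraries. Levels are given as normalised read counts (CPM), which are counts scaled to the size of the library by edgeR's trimmed mean of M-values (TMM). Litter 3 held the least RNA of fibroblast and mural marker genes. Summed fibroblast markers were 31.5 and 50.2 CPM there and 103 to 238.5 CPM elsewhere, and summed mural markers were 415 and 443 CPM against 874 to 1119 CPM. In litter 2, summed endothelial markers reached 70.5 and 126.7 CPM, against 13.8 to 53.3 CPM in the other litters. The 8 cardiomyocyte markers summed to between 57190 and 74420 CPM in every library, and no marker of any of these lists was at 0 throughout. In such bulk samples fewer cells of a type and less RNA per cell cannot be told apart.

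Of the 92 members 87 passed the filter on low counts, including all 77 core genes, and entered the tests over 13771 genes. Rps12l1, Rps27rt, Rpl10l, Rps3a2 and Rpl39l did not pass. Rpl10l, a testis form of Rpl10, had 0 counts in all 8 libraries. Rpl39l, another paralog best known from testis, had 1 to 5 counts per library, and Rps12l1 had 1 count in all. Rps3a2, a copy of Rps3a1, had 3, 1, 3 and 3 counts in the males of litters 1 to 4 and 10, 10, 7 and 10 in the females, so that every female lay above every male, but these few counts were not tested.

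Levels were compared between genes per kilobase (kb) of transcript, with lengths from GENCODE M21. The 3 stalk genes, whose products form the flexible arm that recruits elongation factors, were among the 5 highest members. Rplp1 led with 858.5 ± 111.6 CPM per kb (SD, n = 8), followed by Rps29 with 671.9 ± 73.2, Rplp2 with 603.6 ± 46.8, Rpl41 with 597.5 ± 68.7 and Rplp0 with 560.5 ± 66.0. Apart from the gap below Rplp1, these neighbours in the order lie within their spread over libraries. The median core gene had 267 CPM per kb, with quartiles of 194 and 399 CPM per kb. Medians were 239 CPM per kb for the large subunit, 287 for the small subunit and 604 for the stalk.

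**Figure D1:**
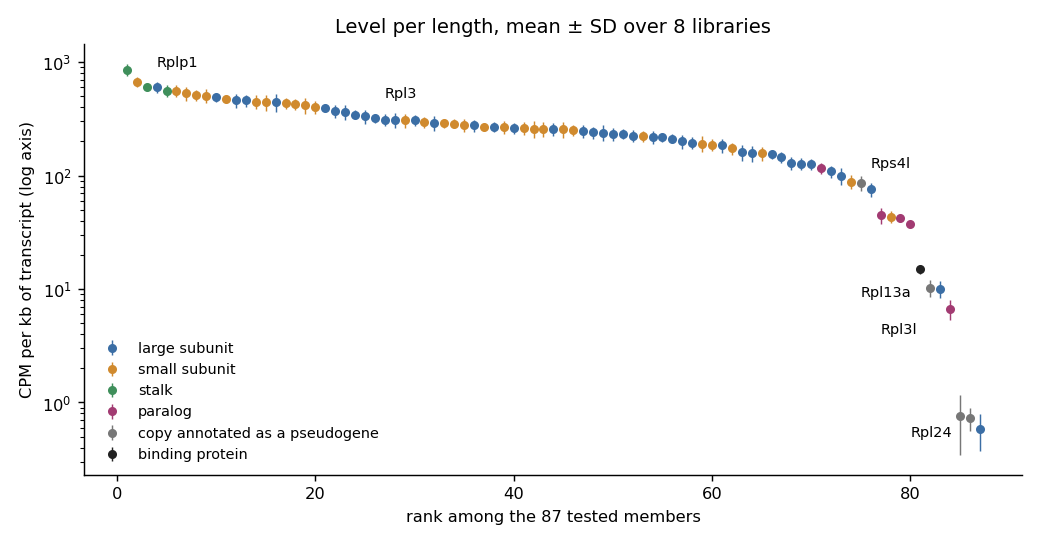
Level per length of the 87 tested members in rank order, as mean CPM per kb of transcript on a log axis with the SD over 8 libraries, coloured by role. The core genes fall from Rplp1 at 858.5 CPM per kb in a shallow slope, while Rpl13a, Rpl3l and Rpl24 lie far below it.

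Among the 87 tested members the lowest per length were Rpl24 at 0.58 ± 0.21 CPM per kb, the copies Rps3a3 at 0.73 ± 0.17 and Rpl6l at 0.76 ± 0.42, then Rpl3l at 6.72 ± 1.34 and Rpl13a at 10.03 ± 1.71. Rpl24, a protein of the bridge between the subunits, was listed with only 4 to 13 counts per library. Rpl13a, known as a component of a translational silencing complex, had 176 to 294. In GENCODE M21, 71.5% of the Rpl24 transcript lies under the same-strand gene Gm28037 and 59.3% of the Rpl13a transcript under Gm45713, so the counts of both are uncertain. The same holds for Rps10, 91.6% of which lies under the read-through gene RPS10-NUDT3, and for the paralog Rpl36al, 63.1% of which lies under Gm49383. Rps20 has only a long principal transcript in this annotation, so its 43.1 CPM per kb is a low estimate. Levels per length of other core genes also depend on the transcript chosen, which is 2.045 kb long for Rpl5 and 1.908 kb for Rps3.

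Many members also share sequence with copies elsewhere. For Rpl10, 91.6% of its 100-base windows recur exactly in another annotated gene, and for Rpl3 79.4% do, mostly in Rpl3-ps1. Rps27 shares 98.4% with Rps27rt. Rpl3l shares none. Levels of members with such copies depend on how reads that fit several places were counted, which is not given in the sources used here.

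Across the 8 libraries the core genes moved together and by little. The highest library exceeded the lowest by a median of 1.44 times, and the median coefficient of variation was 12.6%. Summed over the 77 core genes, the level was 16249 and 16407 CPM in litter 1, 15812 and 14777 CPM in litter 2, 18014 and 18657 CPM in litter 3, and 20856 and 18861 CPM in litter 4, male before female. The litter 2 female was lowest and the litter 4 male highest, and both libraries of litters 3 and 4 stood above those of litters 1 and 2. As a plain share of all counts without TMM, the members took 1.857% in the litter 4 female, slightly less than the 1.866% and 1.93% of litter 3.

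**Figure D2:**
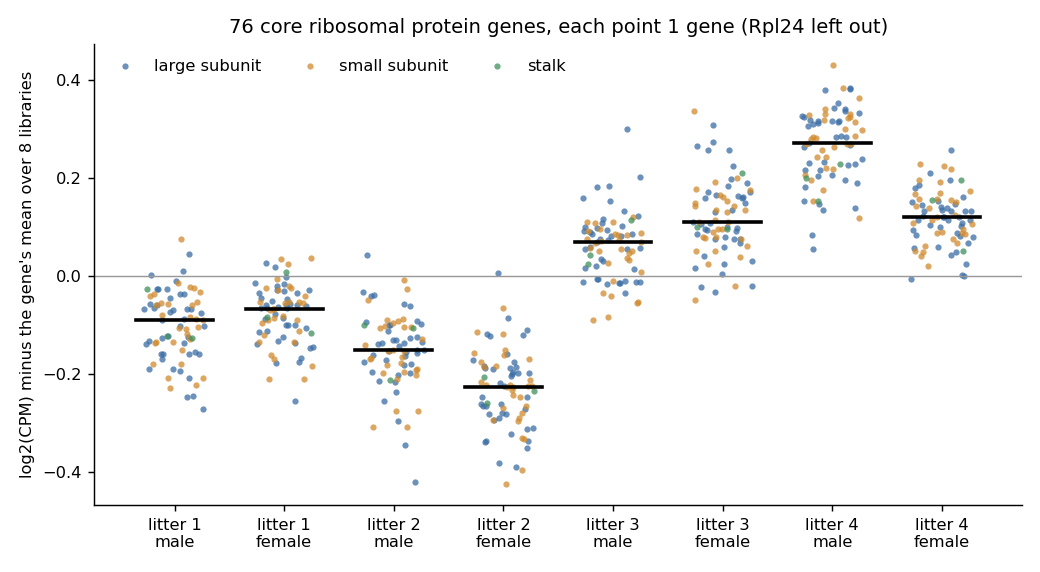
Each point is 1 of 76 core genes in 1 library, as log2(CPM) minus that gene's mean over the 8 libraries, with Rpl24 left out for its very low counts, and the black bar is the median of all 77 core genes. Nearly all points lie below 0 in litters 1 and 2 and above 0 in litter 4, with medians of 0.27 for the male and 0.12 for its sister in litter 4.

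On a log2 scale, the core genes' median deviation from their own means was -0.09 and -0.07 in litter 1, -0.15 and -0.23 in litter 2, 0.07 and 0.11 in litter 3, and 0.27 and 0.12 in litter 4. In the litter 4 male 76 of 77 core genes stood above their own mean, and in the litter 2 female 1 did. The SD of a core gene about its own mean was 0.179 at the median, near the 0.191 of all tested genes. After subtraction of each library's core median it was 0.068, and it became smaller for 75 of 77 genes. Rpl24 (0.504), Rpl13a (0.181) and a few others kept the most spread of their own, among them Rpl28, Rps2 and Rpsa. Rps2, which sits at the mRNA entry channel, had 459, 463, 443, 450.5, 443 and 455 CPM in litters 1 to 3 and 524 and 539 CPM in litter 4, male before female in each litter. It was set apart in litter 4 only, where both libraries exceeded the other 6.

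Litter, tested as 3 coefficients together in edgeR's quasi-likelihood model with sex as a term, was associated with the level of 74 of 87 members at a Benjamini-Hochberg adjusted p under 0.05, which is 85.1%, against 32.1% of all 13771 genes. By role these were 39 of 43 large-subunit, 30 of 31 small-subunit and 2 of 3 stalk genes, 2 of 5 tested paralogs (Rpl3l and Rpl36al) and 1 of 4 tested copies (Rps4l). The core genes that did not pass were Rpl13a, Rplp2, Rpsa, Rpl23a, Rpl15 and Rpl24. The count was 53 without the male of litter 4, which is 60.9% against 27.7% of all genes in that fit. It was 72 without litter 3 (83.7% against 13.7%) and 46 without litter 2 (52.9% against 33.4%). When each library's trend with gene GC content and length was removed it was 40, or 46%, against 29.1%.

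Next, every litter was set against the average of the remaining 3. These comparisons share libraries, so a low litter pushes the others up, and they are 4 views of the same 8 values. All fold changes, rises and falls given for genes are differences on the log2 scale. Litter 4 had the highest mean of the litters for 70 of the 77 core genes and litter 3 for the other 7. Litter 2 had the lowest mean for 68, litter 1 for 8 and litter 4 for 1.

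**Figure D3:**
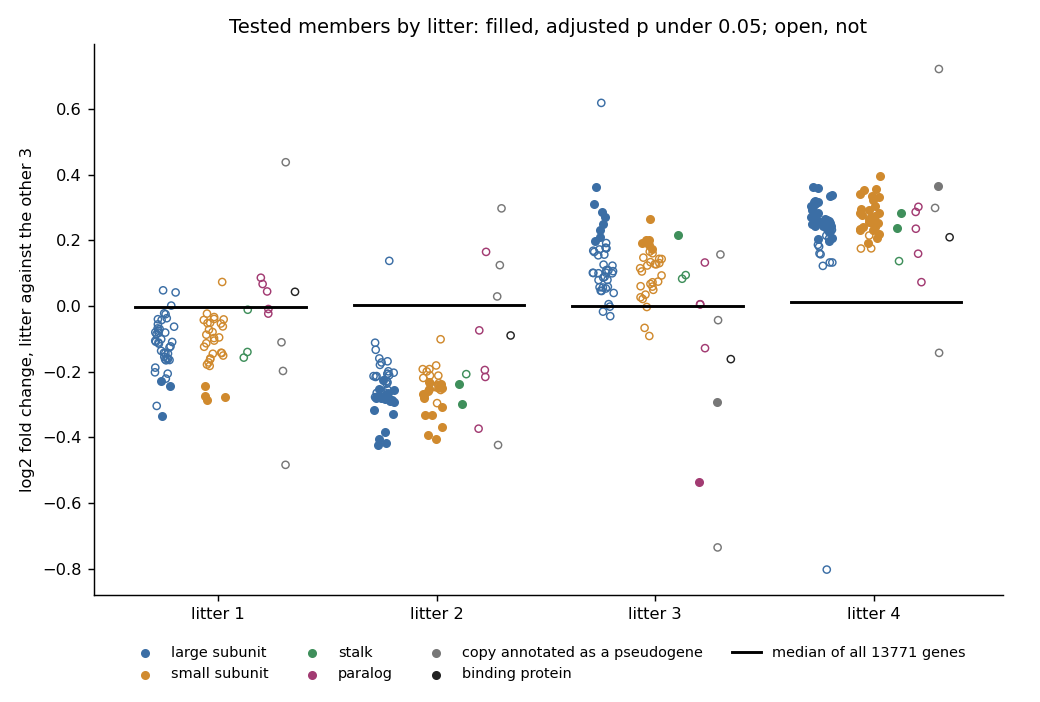
Log2 fold change of each tested member in 1 litter against the average of the remaining 3, coloured by role, with filled points for an adjusted p under 0.05 and a black bar at the median of all 13771 genes. The core genes centre on -0.25 in litter 2 and 0.26 in litter 4, while the medians of all genes lie at 0.00 and 0.01.

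In litter 4, 62 of 87 members rose and none fell, against 4.71% of all genes higher and 5.8% lower. The median log2 fold change of the core was 0.26 beside 0.01 for all genes, with 0.25 for large-subunit and 0.27 for small-subunit genes. Both litter 4 libraries exceeded the other 6 for 37 members, or 42.5%, against 8.23% of all genes, and were below them for 0 members, against 8.8%. Rps23, a protein of the decoding centre, had 162 CPM in both libraries of litter 1, 160 and 152 CPM in litter 2, 176.5 and 185 CPM in litter 3, and 239.5 and 198 CPM in litter 4. Its litter 4 libraries lay above all others, and it rose by 0.40 (SE 0.07, edgeR adjusted p = 0.0058). Rpl30, which also regulates selenoprotein synthesis, rose by 0.36 (SE 0.07, edgeR adjusted p = 0.0085) and Rps27 by 0.36 (SE 0.06, edgeR adjusted p = 0.0068).

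The size of the litter 4 difference rests partly on its male library and on scaling. Without that male 2 of 87 members passed, both higher, which is 2.3% against 0.671% of all genes higher and 1.63% lower. The core median in that fit was 0.18, but few of its genes were called. Without the litter 4 female 40 passed, or 46% against 1.28% of all genes higher, and the median was 0.34. The count was 26 and 38 without the male or the female of litter 1, 39 without the male of litter 3 and 72 without all of litter 3, which is 29.9%, 43.7%, 44.8% and 83.7% against 1.92%, 2.13%, 3.76% and 5.99% of all genes higher. With the library size as the only scaling 29 passed, or 33.3% against 1.9% of all genes higher, with a core median of 0.18 beside -0.06 for all genes. With GC content and length removed 16 passed, or 18.4% against 2.27%, with a median of 0.16. With either scaling, with GC content and length removed, and without either litter 4 library, 75 or 76 of the 77 core fold changes were positive. Short genes moved the same way: with TMM, 1165 other tested genes with transcripts under 1 kb had a median of 0.14 in litter 4, and those of 1 kb or more a median of 0.00. With GC content and length removed these medians were 0.03 and 0.01, and with library size alone 0.06 and -0.08. The part of length, and of the high mitochondrial share of the litter 4 male, in the members' difference was not tested beyond these fits. Among marker genes 5 of 6 fibroblast and 2 of 5 mural markers were higher in litter 4, 3 of 8 cardiomyocyte markers were higher and 1 lower, and the only tested macrophage marker and 1 of 2 tested Schwann and neural markers were lower. Their part was not tested.

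**Figure D4:**
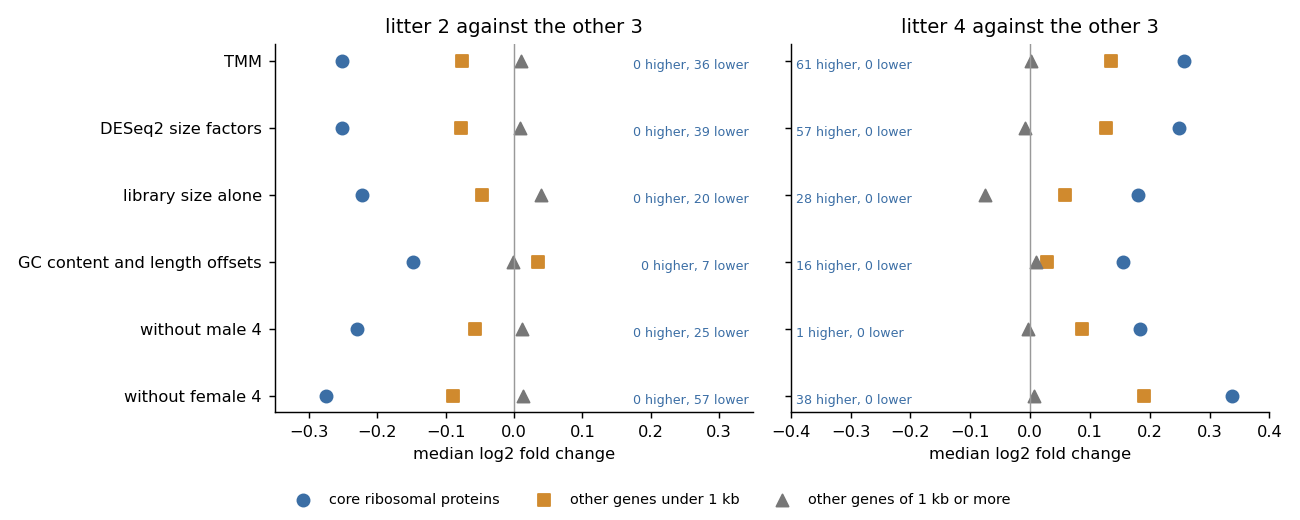
Median log2 fold change of the 77 core genes (circles), of other tested genes with transcripts under 1 kb (squares) and of 1 kb or more (triangles) in litters 2 and 4 against the other litters, under 6 settings, with the number of core genes called higher and lower beside each. The core median stays furthest from 0 in every setting shown, at -0.15 in litter 2 and 0.16 in litter 4 with GC content and length removed, while the number called falls to 1 in litter 4 without its male.

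Litter 2 held the lowest levels. There 36 of 87 members fell and none rose, all 36 of them core genes, against 0.879% of all genes lower and 3.3% higher. The core median was -0.25 beside 0.00 for all genes, and 50 members, or 57.5%, were below all other 6 libraries in both litter 2 libraries, against 3.6% of all genes, while none were above them in both, against 4.79%. Rpl27a, a large-subunit protein, had 107 and 106 CPM in litter 1, 85.05 and 97.8 CPM in litter 2, 127 and 131 CPM in litter 3 and 141 and 127 CPM in litter 4. It fell by 0.42 on the log2 scale (SE 0.07, edgeR adjusted p = 0.0058), with litter 2 below the rest. Rpl36 had 180 and 177 CPM in litter 1 and 137.5 and 144 CPM in litter 2, and the other 4 libraries held 170 to 216 CPM, and fell by 0.42 (SE 0.08, edgeR adjusted p = 0.0089). Rps21, Rpl30 and Rps25 fell by 0.40, 0.40 and 0.39, again with both litter 2 libraries lowest.

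In litter 2 the count also moved with the libraries and settings used. It was 3 without the male of litter 2, or 3.49% of the tested members against 0.289% of all genes lower, and 1 without the female, or 1.15% against 0.143%. It was 17 and 10 without the male or the female of litter 1, 18 without the female of litter 3 and 12 without litter 3, which is 19.5%, 11.5%, 20.7% and 14% against 0.51%, 0.346%, 0.572% and 0.216% of all genes lower. Without the female of litter 4 it was 59, or 67.8% against 1.42%. With library size alone 20 fell, or 23% against 0.537%, with no filter on low counts 65, or 71.4% against 1.34%, and with a mean of at least 50 counts 20, or 23.8% against 0.609%. With GC content and length removed 7 fell, or 8.05% against 0.813%, and the core median was -0.15. In that last fit 1 of 77 core fold changes was positive. Short genes were also lower in litter 2: the 1165 other tested genes with transcripts under 1 kb had a median of -0.08 with TMM, with 36.4% of them positive, against 0.01 for those of 1 kb or more, and a median of 0.04 with GC content and length removed. The part of length in the members' difference was not tested beyond these fits. All 6 endothelial, 5 of 6 fibroblast, 3 of 5 mural and 1 of 4 epicardial markers were higher in litter 2 and 1 of 8 cardiomyocyte markers was lower, and their part in the members' lower level was not tested.

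In litter 3 the core was slightly raised. Here 15 members rose, all of them core genes, and 2 fell, against 13.6% of all genes higher and 14.8% lower. With TMM and all libraries the share that rose, 17.2%, is near that background, and the core median was 0.11 beside 0.00. Rpl13a, uncertain for the reasons above, had 8.59, 9.17, 10.7 and 7.92 CPM in litters 1 and 2, 12.8 and 12.4 CPM in litter 3 and 10.8 and 11.8 CPM in litter 4 (fold change 0.36 on the log2 scale, SE 0.12, edgeR adjusted p = 0.046). Rpl10a, reported in mouse stem cells to be carried by only part of the ribosomes, had 81.4 to 88.5 CPM in litters 1 and 2, 102 and 116 CPM in litter 3 and 98.9 and 101 CPM in litter 4 (0.29, SE 0.06, edgeR adjusted p = 0.0046). Only these 2 members had both litter 3 libraries above the other 6, against 15.1% of all genes, and 1 member, Rpl3l, had both below, against 16.4%. Rpl32, Rpl22 and Rps28 rose by 0.31, 0.27 and 0.26. Without the female of litter 3, the shallowest library, no member passed, against 12.2% of all genes called in either direction, and without the male or the female of litter 1 the count was 9 and 11, or 10.3% and 12.6% against 22.8% and 22.6%. With library size alone 34 passed, 32 of them higher, all core genes, which is 41.6% of the core against 17.6% of all genes. Without the male of litter 4 the share of the core was 27.3% against 12.9%, and with GC content and length removed 13% against 14.7%, so its distance from the background depends on the fit. Fibroblast, endothelial and mural markers were lower in litter 3, with 5 of 6, 5 of 6 and 4 of 5 past the threshold. Of 5 erythroid markers 2 were higher there, with a sum of 528.2 CPM in the litter 3 male, 183.5 CPM in its sister and 97.55 to 243 CPM in the other litters, and 1 of 2 tested Schwann and neural markers was higher. Of the 8 cardiomyocyte markers 1 was higher and 3 were lower, and both litter 3 sums, 60240 and 57190 CPM, were the lowest of all libraries. The part of these cells in the members' level, Rpl3l included, was not tested.

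In litter 1, 7 members fell and none rose, which is 8.05%, against 5.41% of all genes lower and 7.86% higher. With TMM and all libraries the share is close to the background. The core median was -0.11 beside -0.002 for all genes, and 4 of 77 core fold changes were positive. Among the 7 were Rps9 (-0.29), Rps27 (-0.27), Rps14 (-0.25), Rpl37 (-0.24) and Rpl28 (-0.23). Rps9, at the mRNA entry site, had 338 and 341 CPM in litter 1, 367 and 347 CPM in litter 2, 421 and 422 CPM in litter 3 and 486 and 462 CPM in litter 4. Both litter 1 libraries were below the other 6 for 3 members, or 3.45%, against 8.67% of all genes, and above them for none, against 8.89%. With the male or the female of litter 1 left out no member passed, against 2.58% and 2.96% of all genes called in either direction, and 13 passed without the female of litter 4 and with GC content and length removed, 5 of the latter being among the 7. In both of these fits 16.9% of the core was lower, against 5.13% and 5.57% of all genes, which is above the background. Of the marker genes 3 of 6 fibroblast markers were higher in litter 1, 2 of 8 cardiomyocyte markers were higher and 1 lower, and 1 of 5 mural markers was higher and 1 lower. Their part was not tested.

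Start sequence and shared sequence were set beside the litter differences within the core. The 13 core genes with a pyrimidine tract in the start window had a median log2 fold change of -0.24 in litter 2 and 0.26 in litter 4, and the 44 with a window but no tract had -0.25 and 0.25. The 7 core genes with under 5% of their sequence shared with other genes had medians of -0.26 and 0.25, with 4 lower in litter 2 and 5 higher in litter 4. The 35 genes with 50% or more shared had -0.25 and 0.24. No test was made between these subsets.

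The muscle paralog Rpl3l was scarce beside Rpl3 and lowest in litter 3. Its counts ran from 109 to 291 per library, against 6271 to 11010 for Rpl3, and per length its level was 6.72 CPM per kb against 319.7 ± 32.2 CPM per kb for Rpl3 (SD, n = 8). Rpl3l had 8.75 and 10.3 CPM in litter 1, 9.28 and 10.6 CPM in litter 2, 6.29 and 7.5 CPM in litter 3 and 8.99 and 12.2 CPM in litter 4, male before female. Litter 3 was below the other 6 libraries, and the female exceeded the male in every litter. In litter 3, where 3 of 8 cardiomyocyte markers were also lower, it fell by 0.54 (SE 0.12, edgeR adjusted p = 0.0061), one of the 2 members that did. The adjusted p was 0.051 without the male and 0.065 without the female of litter 3. Rpl3 had 413 and 422 CPM in litter 1, 421 and 354 CPM in litter 2, 447 and 431.5 CPM in litter 3 and 505.5 and 462 CPM in litter 4. Its fold change in litter 3 was 0.04 (SE 0.06, edgeR adjusted p = 0.68), and it rose by 0.22 in litter 4 (SE 0.06, edgeR adjusted p = 0.041), a call that ends with library size alone (0.15), with GC content and length removed (0.12) and with any library but the male of litter 2 left out.

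The ratio of Rpl3 to Rpl3l counts needs no scaling between libraries. It was 47.2 and 40.9 in litter 1, 45.4 and 33.5 in litter 2, 71.1 and 57.5 in litter 3 and 56.2 and 37.8 in litter 4, male before female. Counting error alone gives 95% intervals such as 60.3 to 84.3 for the highest ratio and 29.4 to 38.3 for the lowest. Litter 3 held both of the highest values, and in each litter the male lay above the female, by 0.21, 0.44, 0.31 and 0.57 on the log2 scale. The mean log2 ratio was 5.76 ± 0.29 in males and 5.38 ± 0.33 in females (SD, n = 4 each). This difference of 0.38 was not larger than expected from regrouping the libraries (exact permutation test, two-sided, p = 0.171, smallest possible 0.0286). Flipping signs over the 4 litter pairs gave p = 0.125 in an exact permutation test, the smallest that 4 pairs allow. With sex means removed, 93.69% of the variance of the log2 ratio lay between litters (one-sided exact permutation test over 24 matchings, p = 0.125, smallest possible 0.0417). Without litter 3 that share was 64.89%. Litter means of the ratio were 44.0, 39.4, 64.3 and 47.0.

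**Figure D5:**
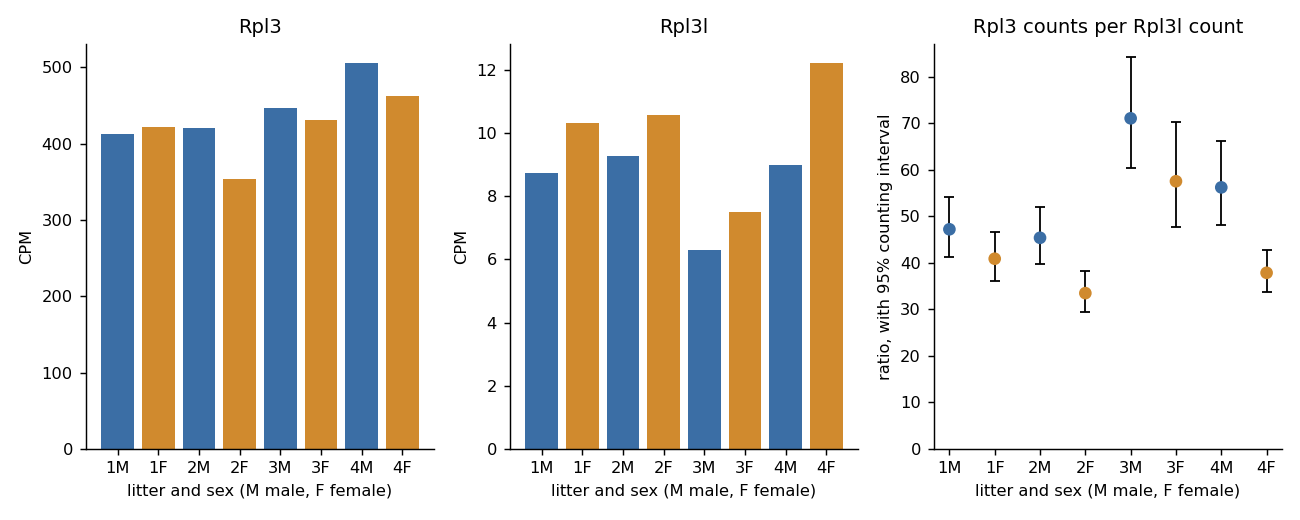
Rpl3 and Rpl3l in CPM and the ratio of their counts with 95% counting intervals, for each litter (1 to 4) and sex (M male in blue, F female in orange). The ratio is highest in both libraries of litter 3, at 71.1 and 57.5, and the male lies above the female in every litter.

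Eef1a1 and Eef1a2, the elongation factor pair with the same kind of switch in muscle, had their highest count ratio in litter 3. Eef1a1 had 2199 and 2253 CPM in litter 1, 2495 and 2146 CPM in litter 2, 2781 and 2831 CPM in litter 3 and 2966 and 2971 CPM in litter 4. Eef1a2 had 362 and 358.5, 378 and 359, 326 and 319, and 373.5 and 427 CPM. The highest Eef1a1 values were those of litter 4 and the lowest Eef1a2 values those of litter 3. Their count ratio was 5.98 to 6.60 in litters 1 and 2, 8.52 and 8.86 in litter 3 and 7.94 and 6.96 in litter 4. Eef1a1 rose by 0.28 in litter 4 (edgeR adjusted p = 0.016), a call that ends with library size alone and without the male of litter 1 or either litter 4 library, and Eef1a2 fell by 0.22 in litter 3 (edgeR adjusted p = 0.024). The Eef1a2 call ends with library size alone (edgeR adjusted p = 0.065) and with either litter 3 library left out.

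The 4 other tested paralogs were nearer to their partners in level per length than Rpl3l to Rpl3, and none of the 4 passed in any single litter. Rps27l, a p53 target, stood at 116.4 ± 13.4 CPM per kb beside 443.5 ± 69.6 for Rps27 (SD, n = 8). Rpl36al stood at 44.5 ± 7.2 CPM per kb beside 199.7 ± 27.3 for Rpl36a, Rpl22l1 at 41.9 ± 3.2 beside 363.2 ± 51.6 for Rpl22, and Rpl7l1, a factor of ribosome assembly, at 37.7 ± 2.4 beside 291.1 ± 42.3 for Rpl7. The count ratio of Rps27 to Rps27l ran from 2.25 to 2.92, and that of Rpl22 to Rpl22l1 from 6.21 to 8.13. Both had their lowest values in litter 1 or 2. Rpl36a to Rpl36al ran from 3.605 to 4.70 and Rpl7 to Rpl7l1 from 5.58 to 8.28, with the highest value in the litter 3 male for both. Rpl36al had 19.1 and 19.0 CPM in litter 2, the other 6 libraries 23.1 to 31.3 CPM, and its overall litter test had an edgeR adjusted p of 0.032.

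Rps4l, annotated as a processed pseudogene on chromosome 6, was expressed at 85.5 ± 12.97 CPM per kb, beside 447.2 ± 61.5 CPM per kb for its X-linked partner Rps4x (SD, n = 8). Its sequence is largely its own, with 2.0% of windows shared with another gene. Rps4l had 63.6 and 57.1 CPM in litter 1, 70.1 and 72.5 CPM in litter 2, 60.5 and 54.4 CPM in litter 3 and 79.4 and 82.1 CPM in litter 4, so litter 4 exceeded the rest. It rose by 0.37 in litter 4 (SE 0.07, edgeR adjusted p = 0.0081) and fell by 0.29 in litter 3 (SE 0.07, edgeR adjusted p = 0.0095), where Rps4x had a fold change of 0.14. The litter 4 call ends with GC content and length removed (edgeR adjusted p = 0.068) and without the litter 4 female, and the litter 3 call ends without the litter 3 female. The ratio of Rps4x to Rps4l counts was lowest in the litter 2 female, at 4.44, and highest in the litter 3 female, at 8.78. The 3 other tested copies were near the detection limit, with Rpl37rt at 2.21 to 3.74 CPM and Rpl6l and Rps3a3 at 0.28 to 1.45 CPM, and they share 31.6% to 77.4% of their windows with other genes. Rps19bp1 had 11.0 to 14.0 CPM and did not pass in any litter.

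Between the sexes none of the 87 tested members was called. In edgeR's quasi-likelihood test without a litter term 0 of 87 members passed, against 0.0436% of all genes, and 0 had an unadjusted p under 0.05, against 2.22%. With litter as a block 0 passed against 0.211%, and 5 had an unadjusted p under 0.05, which is 5.75% against 11.6%. DESeq2 called 0 as well. The median fold change of the core, male over female, was 0.04 on the log2 scale beside 0.00 for all genes, and 56 of 77 were positive.

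The 5 smallest sex p-values belonged to Rpl6l, Rpl3l, Rpl6, Rpl24 and Rpl7, with adjusted p = 1.00 in edgeR for each. Rpl3l had the largest difference among them at a level above a few counts, at -0.29 on the log2 scale (SE 0.18), and each of the 4 males lay below the sibling female. Its adjusted p with litter as a block was 0.32. Rpl6 had 280 and 273 CPM in litter 1, 270 and 225.5 CPM in litter 2, 293 and 288 CPM in litter 3 and 353 and 287 CPM in litter 4, higher in the male each time, yet the sexes overlapped and the fold change was 0.16 (SE 0.11). Rpl7 differed by 0.15 (SE 0.13).

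The X-linked core genes showed no sex difference past the threshold. Rps4x, which has no Y-linked partner in mice, had 415, 424, 454 and 526 CPM in the males of litters 1 to 4 and 408, 322, 477 and 462 CPM in the females, a fold change of 0.12 (SE 0.13). Rpl10, at the large subunit's tRNA-facing side, differed by 0.07 (SE 0.13), Rpl36a by 0.08 (SE 0.13) and Rpl39, a small protein of the exit tunnel, by 0.10 (SE 0.11). In all 4 the male and female values overlapped. Within litters the male was the higher sibling in 4 of 4 pairs for Rpl36a, 3 for Rps4x and Rpl39 and 2 for Rpl10, and with litter as a block the adjusted p in edgeR was 0.58, 0.48, 0.55 and 0.69.

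Fau and Rack1, outside the symbol rule, also rose in litter 4. Fau, which encodes Rps30 fused to a ubiquitin-like protein, had 82.7 and 88.5 CPM in litter 1, 80.8 and 84.4 CPM in litter 2, 90.02 and 93.3 CPM in litter 3 and 109.9 and 111.3 CPM in litter 4. Both litter 4 values exceeded the rest, with a rise of 0.35 (edgeR adjusted p = 0.0046). Rack1, a scaffold on the small subunit's head, rose by 0.25 (edgeR adjusted p = 0.030).

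Among elongation factors 7 of 13 passed by litter, beside 32.1% of all genes, and 4 rose and none fell in litter 4, where 4.71% of all genes were higher and 5.8% lower. Eef2, which moves the ribosome along the mRNA, had 1720 and 1801 CPM in litter 1, 2002 and 1922 CPM in litter 2, 2388 and 2289 CPM in litter 3 and 2444 and 2688 CPM in litter 4. It fell by 0.37 in litter 1 and rose by 0.35 in litter 4 (edgeR adjusted p = 0.0025 and 0.0053). Eef1g, a subunit of the exchange factor of Eef1a, fell by 0.46 in litter 3 (edgeR adjusted p = 0.00016).

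Of 34 initiation factors 15 passed by litter, with 7 higher and none lower in litter 4, and 8 higher and 2 lower in litter 3. Beside these counts, 32.1% of all genes passed by litter, 4.71% were higher and 5.8% lower in litter 4, and 13.6% were higher and 14.8% lower in litter 3. Eif4b, which stimulates the helicase Eif4a, had 180 to 214 CPM in litters 1 and 2, 332 and 339 CPM in litter 3 and 238 and 243 CPM in litter 4. It rose by 0.70 in litter 3 (edgeR adjusted p = 1.3e-05), clear of the other libraries. Pabpc1, the poly(A)-binding protein, and Eif3e, a subunit of the Eif3 scaffold, rose there by 0.30 and 0.31.

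Among the 17 genes that control ribosomal protein translation 9 passed by litter, beside 32.1% of all genes, with 1 higher and 4 lower in litter 4, beside 4.71% and 5.8%. Pdcd4, an inhibitor of Eif4a, had 14.3 to 21.2 CPM in litters 1 and 2 and 26.9 to 31.4 CPM in litters 3 and 4, and rose by 0.47 in litter 4 (edgeR adjusted p = 0.020) and by 0.51 in litter 3 (edgeR adjusted p = 0.0049). In litter 1 its log2 fold change was -0.65 (edgeR adjusted p = 0.0036). Eif4ebp2, a repressor of Eif4e, had 45.4 and 37.8 CPM in litter 3 and 27.3 and 27.5 CPM in litter 4, a rise of 0.42 and a fall with a log2 fold change of -0.38. Mtor itself was lowest in litter 3, at 90.8 and 76.4 CPM, with a fold change of -0.36.

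Genes of ribosome assembly were counted by litter beside the 32.1% of all genes, with no test of the difference in share. Of 19 genes for RNA polymerase I and ribosomal RNA transcription 2 passed, Myc and Polr1c, which had fold changes of 0.67 and 0.33 in litter 3. Of 35 small-subunit assembly genes 7 passed, with none higher and 1 lower in litter 4, Utp20 at -0.30. Of 42 large-subunit assembly genes 6 passed, with 1 higher and 1 lower in litter 4. In that litter 4.71% of all genes were higher and 5.8% lower. Mdn1, the AAA ATPase that remodels large-subunit precursors, had 45.2 and 39.7 CPM in litter 1, 45.6 and 40.4 CPM in litter 2, 35.1 and 31.2 CPM in litter 3 and 26.5 and 27.4 CPM in litter 4. It fell by 0.54 in litter 4 (edgeR adjusted p = 0.0030), where the core was highest. Npm1, a nucleolar chaperone of ribosome assembly, had its highest values in litter 3, at 254.5 and 257.5 CPM, with a rise of 0.39. No gene of these 7 lists was called between the sexes without the litter block, and 1 initiation factor was called with it.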

How the data were processed

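RNA of purified cardiomyocytes from 8 pups was sequenced from 1 µg of total RNA with a stranded total RNA kit as single-end 100-base reads, per the labels' protocols; the labels also name the molecule polyA RNA, and this conflict is not resolved here. The submitters' processing notes name STAR 2.7.3a and mm10. The counting program, annotation and strand setting are not given in the sources used here. The authors deposited whole-number read counts per gene symbol, 48440 entries in 8 columns, each matched to its sample by title.

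Groups are sex and litter as labelled. Every pup gave 1 library, and replicates are pups. Counts were tested with edgeR 4.0.16 (R 4.3.3): filterByExpr by sex kept 13771 genes, TMM scaled the libraries, and quasi-likelihood tests were adjusted by Benjamini-Hochberg over all 13771 genes at 0.05. Sex was tested without a litter term (6 residual degrees of freedom), and litter with sex as a term (3). Litter numbers pair siblings per the labels: deviations from the sex means correlated with r = 0.367 to 0.696 within litters and -0.482 to 0.27 between them. Libraries of 1 sex differed beyond sampling noise (chi-square per degree of freedom from 10.4 to 49.1). Log2 values in plots of deviations use CPM; summary deviations add a prior count of 2. Intervals of ratios are 95% Clopper-Pearson intervals of counting error only. The test scripts were tested on simulated data.

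Members were matched by symbol to GENCODE M21 on GRCm38, which serves for lengths, roles and shared 100-base windows, with sequences from RefSeq; 46368 entries matched. The members, the lists of pathway and cell type genes, and the tests were chosen with earlier results of these data known. Genes were named by a rule: Rpl3, Rpl3l, Eef1a1, Eef1a2, paralogs, copies and partners, X-linked members, the 5 highest and 5 lowest per length, the 5 smallest sex p-values, up to 5 past the threshold per litter and direction by fold change, up to 3 per pathway list by range over litters, members with an outlying library, and members with uncertain counts. Rpl15, Rpl23a and Rpsa, which missed the litter threshold, and Rpl28 and Rpl37, called in litter 1, were named after their values were seen. Alternatives were DESeq2 1.42.0, other scalings and filters, GC content and length offsets, the litter block and leaving out libraries or litters. Precision is limited by 2 libraries per litter. Some genes that the naming rule takes are not reported here.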

Additional observations from a re-analysis of the deposited data

Results flagged for a closer look

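Within each sex, the 4 libraries were searched for a value far from the others, by the gap to its nearest neighbour over the whole range (Dixon's ratio, past its 95% critical value), in 240 groups of 4 values. Chance flags about 1 group in 20, and 7 groups stood out, or 2.92%. Among members, Rpl36al was low in the female of litter 2, at 19.02 CPM against 23.3 to 23.98 CPM in the other females. Rps3a3 was high in the same library, at 0.7646 CPM against 0.4113 to 0.4618 CPM, a matter of a few counts. Rps2 was high in the female of litter 4, at 539.3 CPM against 450.5 to 463.4 CPM. Rps10 was high in the male of litter 4, at 132.2 CPM against 102.4 to 106.0 CPM. The log2 ratio of Rpl22 to Rpl22l1 was low in the male of litter 1, at 2.7781 against 2.9967 to 3.0238. Outside the members, Eef1e1 was high in the male of litter 1, at 13.01 CPM against 9.606 to 9.94 CPM. The mitochondrial share of counts was high in the male of litter 4, at 18.46% against 14.16% to 14.67%, in the library that also held the highest summed core level. Whether these move together for a reason was not tested.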

How the results depend on the processing

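Counts of members past the threshold moved with scaling, filters and single libraries, while no named result past the threshold in either fit changed direction. With library size alone the counts were 20 in litter 2, 34 in litter 3 and 29 in litter 4, against 36, 17 and 62 with TMM. No filter on low counts gave 65 in litter 2, and a mean of at least 50 counts gave 20. With GC content and length offsets, available for 96.68% of tested genes and all 87 members, the counts were 40 by litter, 13 in litter 1, 7 in litter 2 and 16 in litter 4. DESeq2 gave 72 by litter and 8, 47, 15 and 59 in litters 1 to 4. Among genes with an adjusted p in DESeq2, 83.7% of members passed by litter, against 24% of all genes. In litters 1 to 4 these shares were 9.52%, 54.7%, 17.6% and 70.2%, against 10.7%, 3.2%, 21.1% and 9.33%. The replicate block by litter left the count by sex at 0 and the ratio difference by sex at 0.38, and it changed no call of a member; over all genes the calls by sex went from 6 to 29, with 1 initiation factor among them. Leaving out libraries or litters gave 46 to 73 by litter, 0 to 13 in litter 1, 1 to 59 in litter 2 (12 without all of litter 3), 0 to 23 in litter 3, 2 to 72 in litter 4 and 0 by sex. The share of all genes called by litter moved as well, from 13.7% without litter 3 to 33.4% without litter 2. Without litter 3, the share of all genes called in either direction was 7.03% in litter 1, 1.95% in litter 2 and 14.3% in litter 4. Fits without a single library leave 1 library in that litter, so member counts from them are weak evidence. With libraries or litters left out, the Rpl3 to Rpl3l log2 ratio difference by sex ran from 0.2492 to 0.5371, and its share between litters from 64.89% to 97.64%. Of 758 alternative values for 43 named results, 656 kept their side of the threshold, 92 lost it, 10 gained it and 0 reversed. A change of sign was counted as reversed only where the result passed the threshold in the main fit or in the alternative. Results of the overall litter test have no sign. Fits without members in the scaling, and those leaving out litters 1, 2 or 4 (or litter 3 by sex), were chosen after seeing the data. Precision is limited by 2 libraries per litter and, for Rpl3l, by 109 counts in the shallowest library. The causes of these changes were not tested.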
